A study of Rattus norvegicus with 22 samples.

Results

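The comparison described here asks how gene expression in contused rat spinal cord differed when buthionine sulfoximine (BSO) had been given before the injury, averaged over rats with and without the antioxidant tempol. It uses 11 of the 22 arrays of the series and 4 of its 8 groups, whose arrays were assigned by their labels. The 6 arrays with BSO are BSO 1 to 3 and tempol plus BSO 1 to 3, and the 5 without it are contusion 1 and 2 and tempol 1 to 3. All 11 came from rats whose cord was contused at thoracic level 10 by a 10 g weight with a tip of 2.5 mm that fell 25 mm, and cord was taken 24 h later. The contusion group received no drug. The BSO group received 150 mg/kg of BSO into the abdomen 24 h before the contusion. The tempol group received 275 mg/kg of tempol by the same route 20 min after it, and the tempol plus BSO group received both. No group had BSO without injury, and no vehicle for either drug is named in the sources used here. Strain, sex, age and the number of rats behind an array are not given there either, so the p-values speak only of the spread among these arrays, which may be technical.

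Glutathione is a small thiol that cells use to remove peroxides and to conjugate reactive compounds. Its first and rate-limiting step is carried out by glutamate-cysteine ligase, a pair of a catalytic subunit (Gclc) and a modifier subunit (Gclm), and glutathione synthetase (Gss) completes it. BSO inhibits glutamate-cysteine ligase and so lowers tissue glutathione, while tempol is a nitroxide that breaks down superoxide. Oxidative stress is known to activate the transcription factor NRF2, whose target genes include Gclc, Gclm, the cystine transporter Slc7a11, haem oxygenase Hmox1 and the quinone reductase Nqo1. The labels name glutathione as what the treatments of the series act through. Glutathione itself was not measured on the arrays, so whether BSO lowered it in these cords is not shown by the files.

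Neither the genes of glutathione synthesis, nor those that use glutathione, nor the NRF2 targets differed between cords with and without BSO at the threshold of the test, and no other gene did. With limma, 0 of 31042 probe sets passed an adjusted p of 0.05 for BSO, which is 0% of those tested, and the smallest adjusted p was 0.578. At an unadjusted p under 0.05 there were 1375 probe sets, or 4.43%, of which 753 (2.43%) were higher with BSO and 622 (2.00%) lower. A share of 0.05 of the probe sets would be 1552.1. With 1 probe set for each gene the count was 566 of 14217 genes, or 3.98%. All values below are deposited signals for single arrays, or log2 differences of signals, and ± gives the standard error of a difference between 6 and 5 arrays adjusted for tempol.

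No measure of array quality differed between both sides at an exact p of 0.05. The log2 ratio of 3′ to 5′ probe sets, which grows with RNA degradation, had means with and without BSO of 0.42 and 0.46 for GAPDH and 0.32 and 0.27 for actin (exact two-sided permutation p of 0.76 and 0.78 within tempol levels, 200 relabellings). For hexokinase the means were -0.64 and 0.30, with arrays from -3.42 to 2.48 and from -2.01 to 3.03 (exact p of 0.395). The median log2 signal was 7.32 with and 7.25 without BSO (exact p of 0.075). The median correlation of an array to the 21 others was 0.751 with BSO and 0.770 without it (exact p of 0.055). The part of these measures in the results was not tested. Laminectomy 2 and normal 1 stand apart from the other arrays of the series and enter only the estimate of the spread, and without them 0 probe sets passed for BSO and 1605 had an unadjusted limma p under 0.05.

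The 3 genes of the synthesis steps themselves had BSO differences within 0.05 of 0. Gclc, the subunit whose protein BSO inhibits, gave signals of 837.8 and 612.6 in contusion, 696.8, 696.5 and 1145.0 in BSO, 622.1, 1277.3 and 669.1 in tempol, and 652.8, 846.0 and 795.2 in tempol plus BSO. The groups overlapped throughout, and the difference was 0.04 ± 0.35, with a 95% interval of -0.70 to 0.77, or 0.616-fold to 1.71-fold. A second, dimmer probe set of Gclc gave -0.70 ± 0.73, and the mean of both probe sets gave -0.33. Gclm ranged from 59.8 to 185.7 in BSO and from 50.9 to 259.2 in tempol plus BSO, against 124.9 and 196.8 in contusion and 66.8 to 196.2 in tempol. Its difference was -0.02 ± 0.43 (95% interval -0.91 to 0.88). Gss gave -0.04 ± 0.42, and 5 of its 6 BSO arrays lay between 264.9 and 401.3 while BSO 3 was at 130.9.

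Genes that supply the building blocks lay on either side of 0. Slc7a11, which brings in cystine, had signals of 200.7 and 302.7 in contusion and 140.0, 298.2 and 363.7 in BSO, and its difference over both tempol levels was 0.18 ± 0.44. Ggt1, which breaks down glutathione outside cells so that its amino acids can be taken up again, gave 0.20 ± 0.46. The 3 smallest p-values of the list belonged to Cth, which makes cysteine from cystathionine, Dpep1, a dipeptidase that acts after Ggt1, and Ggt5, a relative of Ggt1. Cth was 0.86 ± 0.55 (unadjusted limma p of 0.132) at signals of only 6.2 to 48.0. Dpep1 was -0.87 ± 0.58, but its 2 other probe sets gave 0.03 and 0.36. Ggt5 was 0.81 ± 0.60, and its second, dimmer probe set pointed the other way at -1.19 ± 0.53 (unadjusted limma p of 0.0348). With 1 probe set for each gene, 9 of the 16 genes of glutathione synthesis lay above 0 and 7 below. Their median difference was 0.05, and 0 had an unadjusted limma p under 0.05 on that probe set. Over all 14217 genes 51.19% lay above 0 and the median was 0.01.

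**Figure D1:**
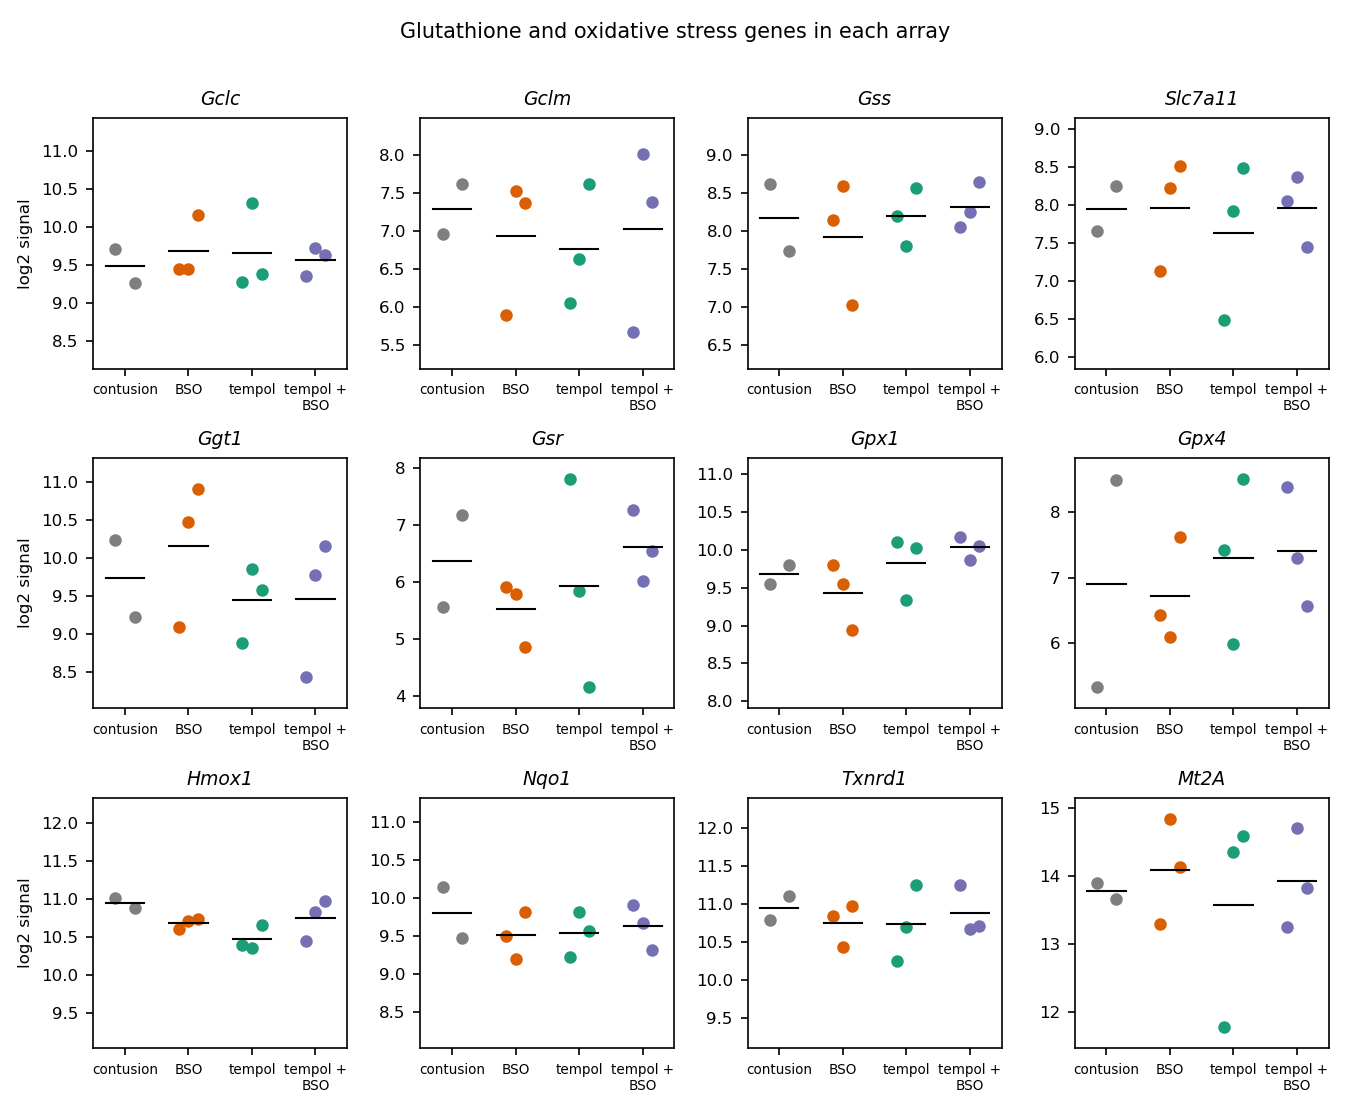
Each panel gives the log2 signal (vertical axis) of 1 gene in the 11 arrays, by group (2 contusion arrays and 3 in each other group); points are arrays and bars are group means. In the 12 genes of glutathione metabolism, oxidative stress and metal binding the range of arrays with BSO overlaps that of arrays without it. An example is Gclc (652.8 to 846.0 in tempol plus BSO against 622.1 to 1277.3 in tempol, as linear signals). Single arrays with BSO reach beyond the others in some genes, as for Gpx1, and without tempol the BSO arrays of Hmox1 lie below both contusion arrays.

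Enzymes that spend or regenerate glutathione were spread evenly around 0. Gpx1, the main cellular glutathione peroxidase, gave 749.1 and 888.7 in contusion, 891.1, 748.5 and 493.3 in BSO, 1098.7, 644.3 and 1042.0 in tempol and 1152.9, 931.8 and 1058.5 in tempol plus BSO. The groups overlapped, and the adjusted difference was 0.01 ± 0.40. Gpx4, which removes lipid peroxides, was -0.03 ± 0.74, and glutathione reductase Gsr was -0.01 ± 0.62. Both were measured on dim probe sets that varied from 40.6 to 359.4 and from 18 to 222.0 over the 11 arrays, and their 95% intervals span more than 2-fold each way. The members of the list furthest from 0 by p were the transferases Gsto1 (-0.54 ± 0.33) and Gstm7 (0.50 ± 0.30) and the mitochondrial glutaredoxin Glrx2 (-0.50 ± 0.32). Of 37 genes of this list, 19 lay above 0 and 18 below, with a median of 0.00 and 0 at an unadjusted limma p under 0.05. Chac1, which degrades glutathione and is known as a stress-response gene, was -0.10 ± 0.33.

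NRF2 targets, a list that shares genes with both glutathione lists, lay on either side of 0. Hmox1, which degrades haem, gave 2058.0 and 1877.4 in contusion, 1550.6, 1669.7 and 1697.7 in BSO, 1343.8, 1308.1 and 1611.1 in tempol and 1389.1, 1809.4 and 2003.7 in tempol plus BSO. Every one of these 11 signals lay above the highest of the 6 uninjured arrays (120.1 to 724.4, normal cord and laminectomy). The BSO difference of Hmox1 was 0.04 ± 0.30 with a 95% interval of -0.59 to 0.66, or 0.664-fold to 1.58-fold. Nqo1 was -0.08 ± 0.27 (interval -0.65 to 0.49), at 587.4 to 899.7 in BSO and 705.4 and 1123.7 in contusion. Thioredoxin reductase Txnrd1 was -0.01 ± 0.29, from 1216.3 to 2441.2 over the 11 arrays. Sulfiredoxin Srxn1 was 0.07 ± 0.62, and its arrays ran from 454.2 to 2371.1 with BSO and from 362.4 to 3655.9 without it. The 3 smallest p-values in the list were those of Ugdh (0.66), Taldo1 (0.46) and Prdx6 (-0.42), none under 0.05. Of 23 targets 10 lay above 0 and 13 below, and the median was -0.01.

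How small a change could have been missed differed by gene. Over all probe sets the 95% interval reached a median of 1.05 on the log2 scale to either side of the estimate, or 2.07-fold. At the lowest decile it reached 0.67, or 1.59-fold. The 95% interval lay wholly within a 2-fold change either way for 6 of 16 genes of glutathione synthesis, 15 of 37 of glutathione use and 9 of 23 NRF2 targets. Over all genes this held for 26.6%. For Hmox1 and Nqo1, each with 1 probe set, the interval excluded a 2-fold change in either direction, whereas for Gsr, Gpx4 and Srxn1 it did not. For Gclc and Txnrd1 it did so on the brighter probe set only, and their dimmer ones gave -0.70 ± 0.73 and -0.89 ± 0.68. A missed threshold does not show that the signals were alike.

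**Figure D2:**
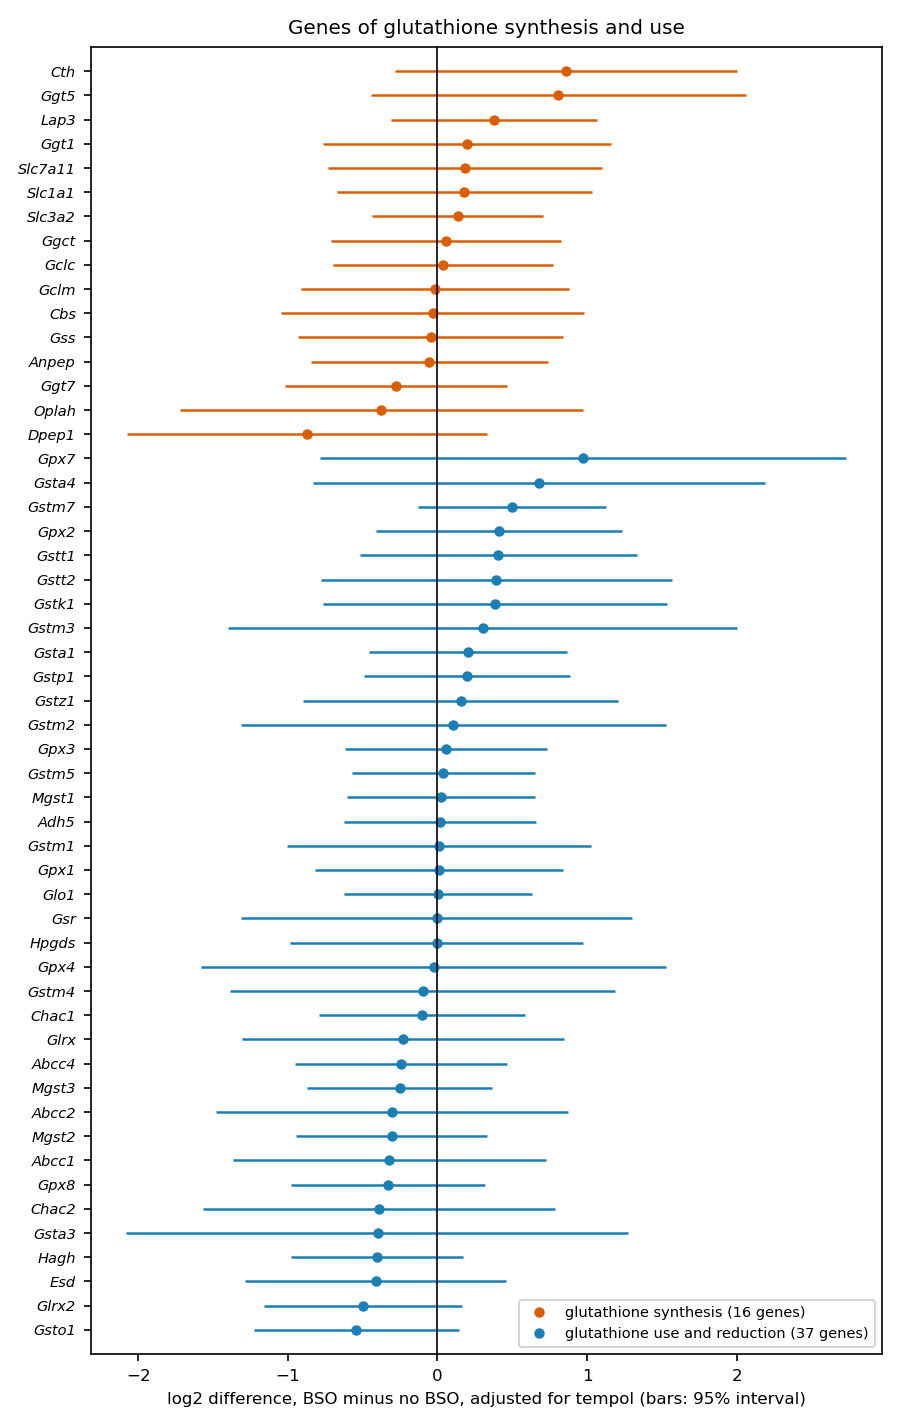
Log2 difference between arrays with and without BSO, adjusted for tempol (horizontal axis), for the 16 genes of glutathione synthesis and the 37 of glutathione use and reduction; points are estimates from 6 against 5 arrays and bars are 95% intervals. Every interval shown includes 0, and estimates, from 1 probe set for each gene, run from -0.87 (Dpep1) to 0.97 (Gpx7).

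Other stress-related lists held few genes with a small p. Among enzymes that make or remove superoxide and peroxide, Ncf1, a cytosolic subunit of the phagocyte NADPH oxidase, had the smallest p of its list. It was at 218.7 and 433.4 in contusion, 112.8, 281.9 and 189.1 in BSO, 309.2, 477.8 and 352.6 in tempol and 32, 56.0 and 146.4 in tempol plus BSO. The groups did not overlap with tempol and did overlap without it. The difference was -1.75 ± 0.65 (unadjusted limma p of 0.0138, adjusted p of 1). Ncf4, another cytosolic subunit of that oxidase, was 0.73 ± 0.58. In this list 10 of 21 genes lay above 0 and 1 had an unadjusted limma p under 0.05, or 4.76% beside 3.98% of all genes.

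Metal-binding and amino acid responses likewise held few small p-values. Mt2A, a metallothionein that binds zinc and is rich in thiols, was 0.33 ± 0.69, and its signals ran from 3527.0 in tempol 1 to 29204.4 in BSO 2. Mt1 was -0.55 ± 0.51. Of 13 genes for metallothioneins and metal ions 4 lay above 0 and the median was -0.19 (-0.37 without contusion 2), with 0 at an unadjusted limma p under 0.05. Trib3, a target of the amino acid and unfolded protein responses, was 1.25 ± 0.55 (unadjusted limma p of 0.0331), but its other probe sets gave -1.42 and 0.24. Of 26 genes of the ATF4 response 10 lay above 0 and 16 below, and the median was -0.08. Atf3 was -0.32 ± 0.69, a value that turned to 0.18 when tempol plus BSO 3, at 19.7, was left out. The unfolded protein response had 10 of 21 genes above 0, heat shock proteins 11 of 17 and p53 and cell death genes 9 of 19. In the last of these Tp53inp1 was -1.03 ± 0.45 at signals of 10.4 to 79.4. Its difference was -2.05 without tempol and -0.22 with it.

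Among inflammatory genes, Tnf had the smallest unadjusted limma p of any listed gene. Its probe set was dim, with a mean log2 signal of 5.96 over the 11 arrays, below the 6 asked of the ranked genes. Tnf, a cytokine made early by microglia and macrophages, was at 47.1 and 37.3 in contusion and at 85.0, 129.5 and 94.9 in BSO. With tempol it was at 74.4, 39.5 and 13.9, and with tempol plus BSO at 62.4, 115.3 and 100.6. The arrays did not overlap without tempol, and with tempol 1 pair of arrays did. The difference was 1.33 ± 0.37, or 1.49-fold to 4.29-fold by its 95% interval, with an unadjusted limma p of 0.00164 and an adjusted p of 0.885. With 32 added to the signals before log2 the difference was 0.82. A second Tnf probe set gave 0.84 ± 0.61. The 6 uninjured arrays ran from 50.4 to 97 for Tnf, a range that held 3 of the 6 signals with BSO and 1 of the 5 without it. Ccl4, a chemokine for monocytes and lymphocytes, was 0.82 ± 0.36 (unadjusted limma p of 0.0351), and its lowest array was contusion 2 at 125.9, without which the difference was 0.45.

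Ccl2, a monocyte chemokine, was 0.61 ± 0.47 at 612.5 to 4024.8, all above the 23.2 to 502.7 of uninjured cord. Timp1, an inhibitor of matrix proteases, was 0.19 ± 0.46, with BSO arrays at 3366.1 to 10060.8 and contusion arrays at 5995.0 and 9570.7. Of 30 cytokines and chemokines 2 had an unadjusted limma p under 0.05, or 6.67% beside 3.98% of all genes. In this list 20 lay above 0, or 66.67% beside 51.19% of all genes, with a median of 0.24. The median was 0.08 without tempol and 0.22 with it, and it was 0.13 when contusion 1 was left out. Among immediate early genes Myc was -1.44 ± 0.46 (unadjusted limma p of 0.00509, adjusted p of 1). Myc gave 188.2, 65.8 and 194.7 in BSO, below the 439.3 and 880.1 of contusion, and 500.3, 140.5 and 321.3 in tempol plus BSO, where 1 array overlapped the 435.7, 713.8 and 399.0 of tempol. Of its 23 list members 12 lay above 0 and the median was 0.01.

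Several markers of the cells of the cord were measured at high signal on all 11 arrays, as a check of the labelled tissue. Others were dimmer: Mog of myelin ran from 237.8 to 485.1, Cd68 of macrophages from 60 to 908.2 and Cd3e of T cells from 59.6 to 1200.1. Gfap of astrocytes ran from 8054.3 to 16678.1, Mbp of myelin from 19105.8 to 51276.3, Snap25 of neurons from 870.2 to 5501.1 and Aif1 of microglia and macrophages from 340.6 to 1571.7. Hbb, a haemoglobin chain of red cells, ran from 2746.5 to 8326.7. Among skeletal muscle genes, Acta1 lay between 14.0 and 87.0 and Ckm between 203.4 and 519.1, while Myh1 ran from 859.0 to 6651.4. The BSO difference of Gfap was 0.03 ± 0.28 (interval -0.55 to 0.60). In RNA from whole tissue, fewer cells of a type and less RNA per cell cannot be told apart.

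By cell type, 19 of 25 neuron markers lay above 0, or 76% beside 51.19% of all genes, with a median of 0.26. That median was 0.43 without tempol and 0.06 with it, and 0.04 when contusion 1 was left out. None of the 25 had an unadjusted limma p under 0.05, and the smallest belonged to Gad2, a GABA-synthesizing enzyme, which lay the other way at -1.24 ± 0.62. The 2 myelin-lineage genes with an unadjusted limma p under 0.05 had opposite signs. At that level stood 1 of 20 oligodendrocyte and myelin genes (5%) and 1 of 9 progenitor genes (11.11%), beside 3.98% of all genes. Ermn, of mature oligodendrocytes, was 1.05 ± 0.43, and Nkx2-2, a transcription factor of the lineage, was -0.85 ± 0.40. The 2 other probe sets of Ermn gave -0.32 and 0.01. Cldn5, the tight junction protein of brain and cord endothelium, was at 247.1 and 68.1 in contusion, 335.6, 274.0 and 258.6 in BSO, 181.5, 171.5 and 215.8 in tempol and 227.8, 378.6 and 349.6 in tempol plus BSO. It did not overlap at either tempol level, and its difference was 0.91 ± 0.35 (unadjusted limma p of 0.0161, adjusted p of 1), or 0.55 without contusion 2. Endothelial genes as a list lay 10 above and 10 below 0.

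Macrophage markers lay 7 of 17 above 0 and microglia markers 6 of 13, with medians of -0.16 and -0.07. The macrophage median was -0.42 without tempol and 0.26 with it, and it was 0.02 when contusion 1 was left out. The microglia median was 0.12 without tempol and 0.19 with it, and it was 0.11 when contusion 2 was left out. The same sign at both tempol levels was seen in 3 of the 13 microglia genes. Neutrophil markers lay 6 of 13 above 0 with a median of -0.02, or 0.28 without contusion 2. Lymphocyte and dendritic markers had the highest median of the 34 lists, 0.28, with 11 of 17 above 0. That median was 0.41 without tempol and 0.08 with it, and 0.08 when BSO 1 was left out. The same sign at both tempol levels was seen in 7 of the 17. The list was led by Itgax at 1.19 ± 0.64, or 0.57 when contusion 2 was left out. Lcn2, an acute-phase protein of neutrophils and reactive astrocytes, was 0.90 ± 0.44 (unadjusted limma p of 0.0555). Cholesterol synthesis had 14 of 17 genes above 0, or 82.35% beside 51.19% of all genes. Its median was 0.26, or 0.11 when contusion 1 was left out. At the tempol levels the cholesterol median was 0.33 without tempol and 0.07 with it. Only 5 of these 17 genes had the same sign at both levels, beside 7278 of all 14217 genes. Oxidative phosphorylation had 15 of 28 above 0 and hypoxia and glycolysis 7 of 18. Over the 34 lists together 12 of 605 genes had an unadjusted limma p under 0.05 and 0 passed after adjustment, or 1.98% beside 3.98% of all genes at the unadjusted level. The others not yet named were Igf2 (-1.12), Prx of myelinating Schwann cells (-1.62) and Ube2c of mitosis (1.55).

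**Figure D3:**
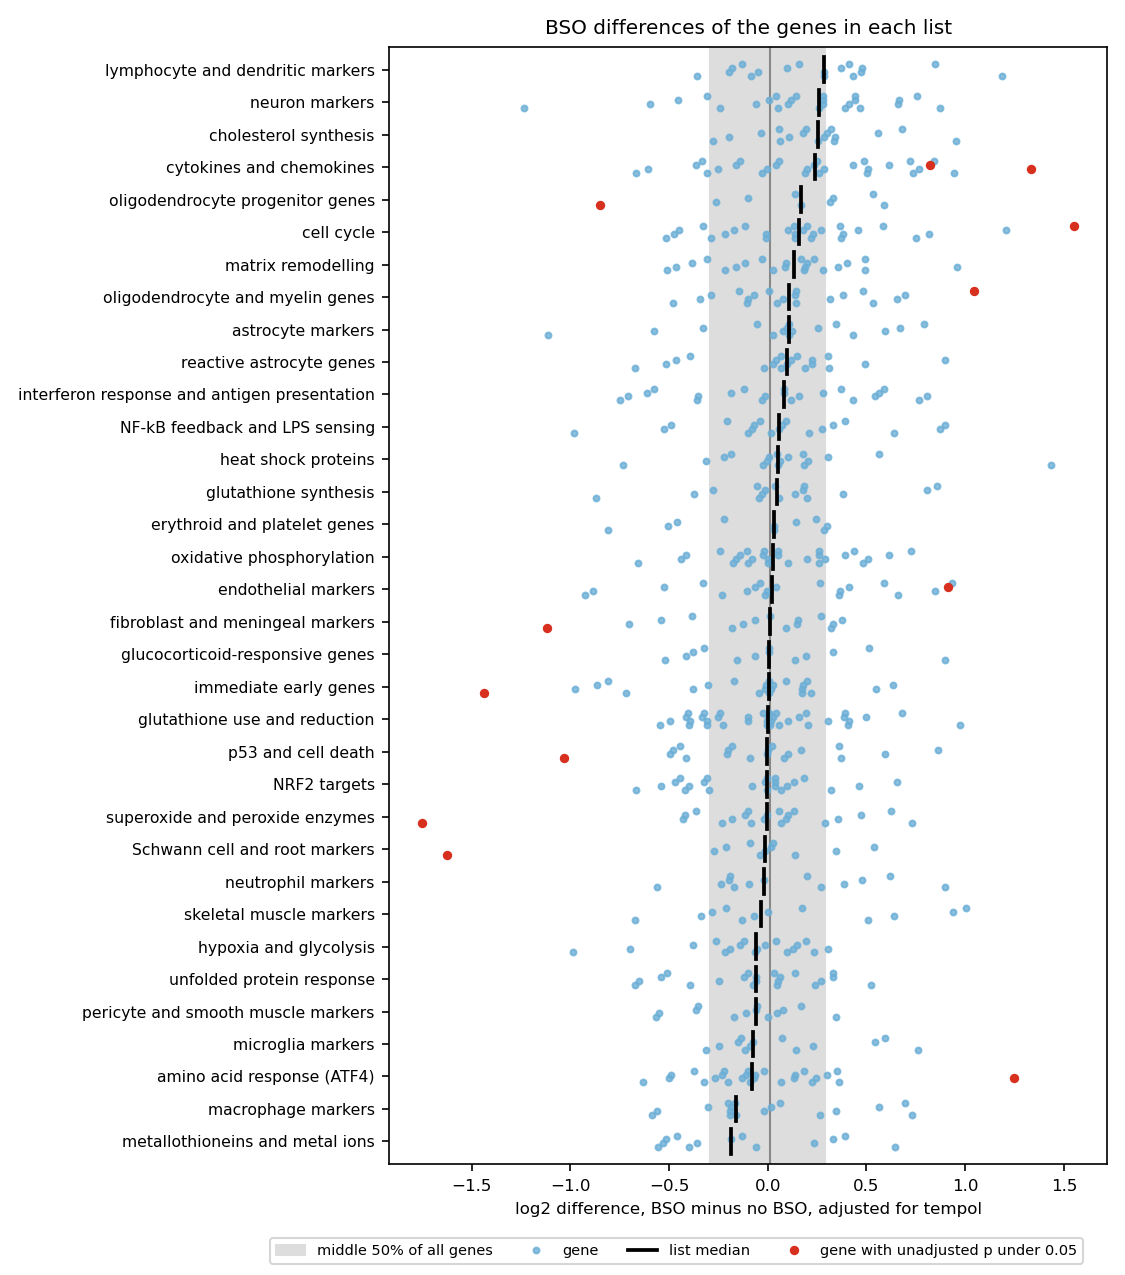
BSO difference adjusted for tempol (horizontal axis, log2) of each gene in the 34 lists; dots are genes, black bars list medians, red dots genes with an unadjusted limma p under 0.05, the grey line the median of all 14217 genes and the grey band their middle 50%. List medians run from -0.19 (metallothioneins and metal ions) to 0.28 (lymphocyte and dendritic markers), and the 12 red dots lie in 11 of the lists.

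Since no probe set passed, the genes highest in the ranking are given as a description. They were taken by p from 167 probe sets with 1 gene symbol whose BSO arrays lay on the same side of the arrays without BSO at both tempol levels, with no overlap, and whose mean log2 signal was at least 6. Over all probe sets, bright or dim, 305, or 0.983%, had such separation (174 higher with BSO and 131 lower), and 210, or 0.677%, were without overlap at both levels in opposite directions. Of the 605 listed genes 2 had it, Cldn5 and the myelin lipid enzyme Ugt8 (-0.48 ± 0.26), against 138 of all 14217 genes. Because the choice rests on the values themselves, their separation is not a finding.

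Fv1, named after a mouse gene that restricts retroviruses, headed the ranking. It was at 875.2 and 995.1 in contusion and 1178.1, 526.1 and 514.4 in tempol, and at 379.1, 57.9 and 161.2 in BSO and 80.3, 34.4 and 119.8 in tempol plus BSO. Every array with BSO lay below every array without it, and the uninjured arrays ran from 104.2 to 903.4. The difference was -3.0 ± 0.55, with a 95% interval of 0.0564-fold to 0.278-fold, an unadjusted limma p of 2.67e-05 and an adjusted p of 0.578. Zer1, a substrate receptor of a ubiquitin ligase, was -2.38 ± 0.47, with signals of 63.4 to 173.8 in the 6 BSO arrays and 377.4 to 663.7 in the 5 others. Its other probe set, which had a higher mean signal, gave 0.40 ± 0.38. The 2 probe sets of Zer1 thus had opposite signs.

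Sord, sorbitol dehydrogenase of the polyol pathway, was 1.87 ± 0.39. It gave 63.6 and 124.1 in contusion, 312.0, 456.0 and 190.2 in BSO, 38, 73.3 and 55.8 in tempol and 375.0, 257.3 and 96.2 in tempol plus BSO. Uninjured cord ran from 208.3 to 596.7, so 4 of the 6 arrays with BSO and none of the 5 without it lay in that range. The second probe set of Sord gave 0.57 ± 0.53. Slc35a4, of a family of nucleotide sugar transporters, was -2.36 ± 0.52, and the orphan receptor Gpr135 was -1.44 ± 0.30, with BSO 1 to 3 at 99.2, 98.6 and 98.8 against 294.1 and 352.5 in contusion. Cbarp, a regulator of voltage-gated calcium channels, was 1.82 ± 0.44, while its 3 other probe sets gave 0.29, 0.00 and -1.10.

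Akr7a3, an aldo-keto reductase that detoxifies aldehydes, was also among the 25 ranked genes. It gave 280.2 and 185.6 in contusion, 116.2, 71.2 and 49.5 in BSO, 150.8, 236.5 and 224.0 in tempol and 137.4, 45.7 and 60.3 in tempol plus BSO. The difference was -1.53 ± 0.44 (unadjusted limma p of 0.00228, adjusted p of 0.885), and uninjured arrays ran from 97 to 323.4. Piezo1, a mechanically gated channel, was 1.07 ± 0.29, at 200.4 to 275.7 in BSO against 60.8 and 128.7 in contusion, and at 308.4 to 385.6 in tempol plus BSO against 190.2 to 239.4 in tempol. Kcnc4, a potassium channel, was 0.99 ± 0.29, at 254.3 to 379.6 and 289.0 to 428.7 with BSO against 155.9 to 199.9 without it. Its other probe set, which had a higher mean signal, gave 0.56 ± 0.58, from 0.05 without tempol and 0.97 with it. Dact3, an inhibitor of Wnt signalling, was -3.24 ± 0.84, but contusion 2 stood at 7631.8 and all the other 10 arrays were at 283.3 or below.

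The remaining ranked genes were Nrip3 (-1.65), Slc10a3 (-1.34), Pet100 (-1.61), Aimp1 (-1.48), Kcng2 (-2.56) and LOC102550392 (-1.88) on the lower side. On the higher side they were Dnajc14 (1.18), Glyctk (1.57), Znrf2 (1.82), Mylk3 (2.11), Tfap2b (2.00), Tmem109 (1.34), Ccdc149 (1.74), Dstyk (1.57) and Tmem45a2 (1.18). Of the 25, 15 had further probe sets, 25 in all, and 17 of these had the sign of the first and 8 the opposite one. Among the further probe sets 1, of Nrip3 (-1.29), had an unadjusted limma p under 0.05 with the same sign, and 1, of Kcng2 (0.72), with the opposite sign.

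**Figure D4:**
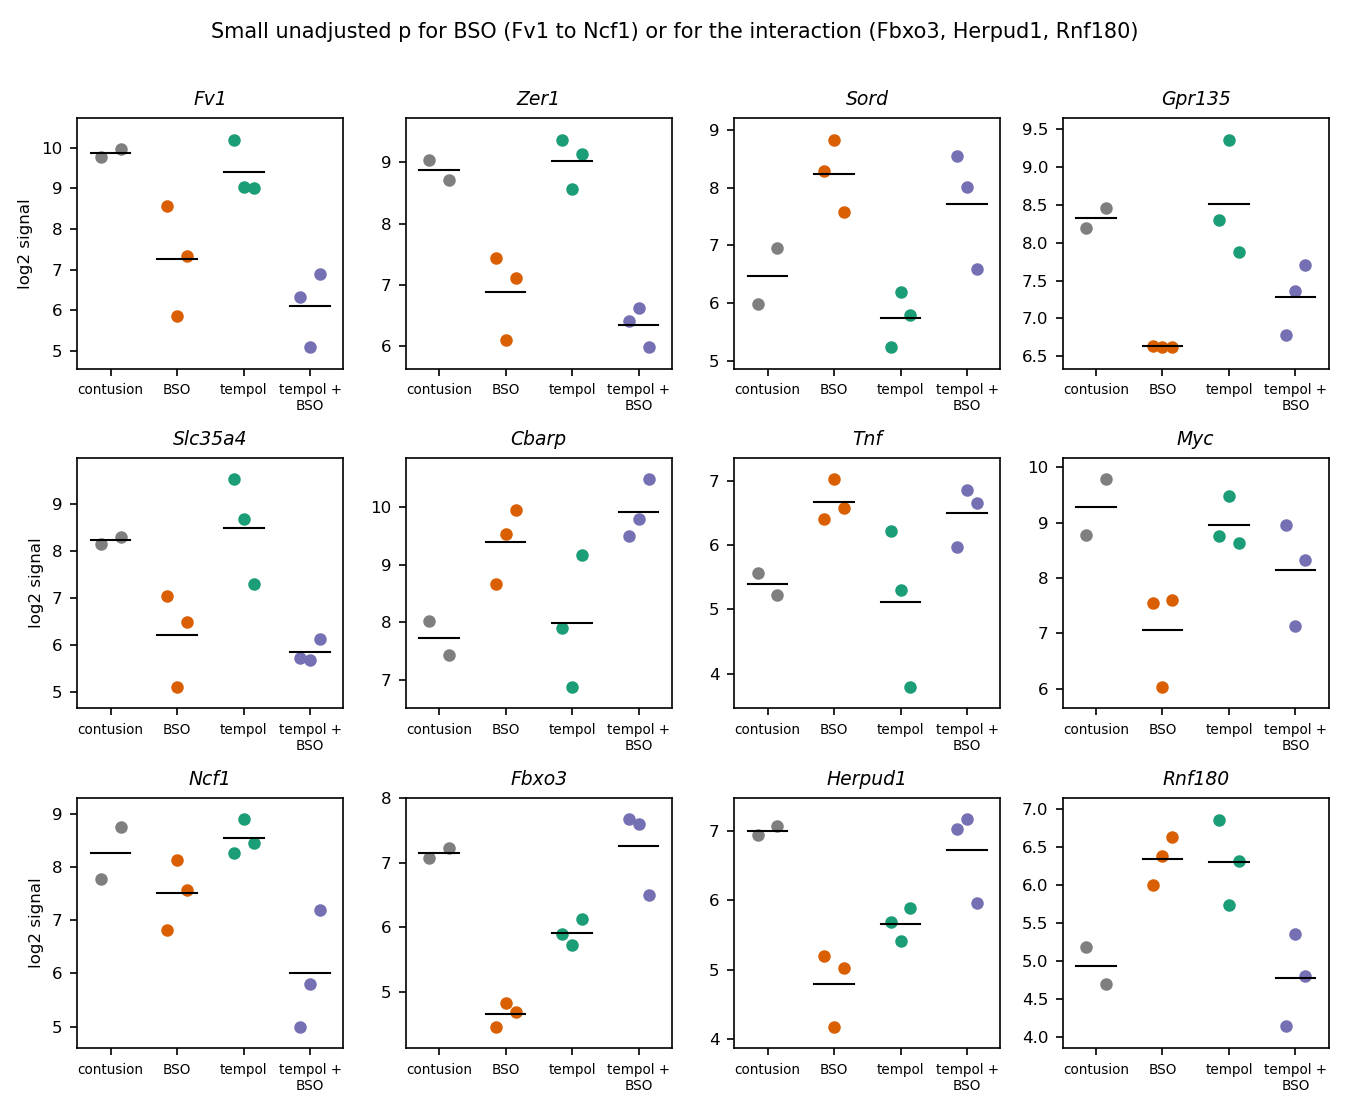
Log2 signal (vertical axis) in the 11 arrays by group for 9 genes with small unadjusted p for BSO and, in the last 3 panels, the 3 with the smallest interaction p; points are arrays and bars group means. BSO arrays of Fv1 (34.4 to 379.1 as linear signals) lie below the others (514.4 to 1178.1) at both tempol levels, while those of Fbxo3 lie below contusion and above tempol.

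The BSO difference was also read at each tempol level. BSO minus contusion and tempol plus BSO minus tempol share no array, so each gives its own estimate. Without tempol 1074 probe sets had an unadjusted limma p under 0.05 and 0 passed after adjustment (smallest adjusted p of 0.0987, for a probe set with no gene symbol). With tempol the count was 1407, also with 0 past adjustment and a smallest adjusted p of 0.783. Both counts lay below 1552.1, which a share of 0.05 of the 31042 probe sets would be. There were 100 probe sets in both counts, 9.31% of the first and 7.11% of the second. Of these, 69 had the same direction and 31 opposite ones. The overlap that unrelated levels would give was not computed, so these shares are only a description. Over 31042 probe sets the correlation of both differences was 0.0493 and 51.49% had the same sign. Over the 1193 probe sets with a mean log2 signal of at least 10 the correlation was 0.170, and 50.88% had the same sign. These are correlations across probe sets of the same arrays, which are not independent replicates.

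**Figure D5:**
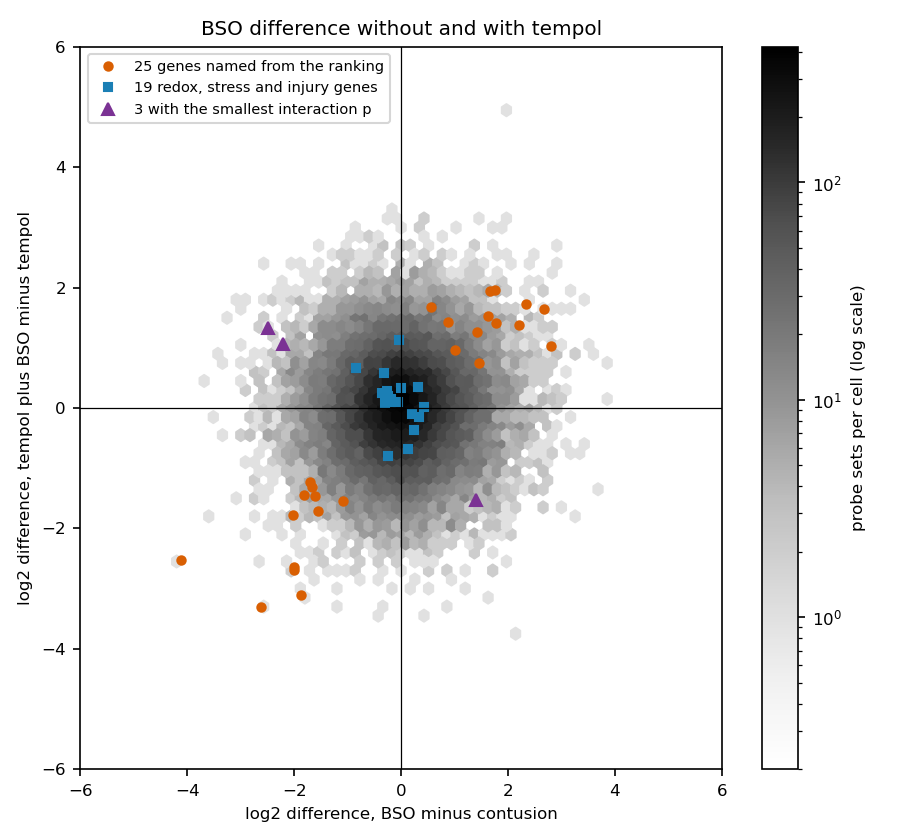
Log2 difference of BSO minus contusion (horizontal axis) against tempol plus BSO minus tempol (vertical axis) for 31042 probe sets, shaded by their number per cell on a log scale; orange dots are the 25 ranked genes, blue squares 19 redox, stress and injury genes and purple triangles the 3 genes with the smallest interaction p. The shaded cloud has no clear slope (correlation 0.0493), the blue squares lie near its centre, and the ranked genes lie in the quadrants of equal sign because they were chosen so.

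A direct test asked whether the BSO difference itself differed between rats with and without tempol. With limma 0 probe sets passed for the interaction (smallest adjusted p of 0.496), and 1068, or 3.44%, had an unadjusted p under 0.05. The median standard error of the interaction was 1.01, about as large as a 2-fold change. Fbxo3, a ubiquitin ligase subunit, had the smallest interaction p of the probe sets with 1 gene symbol. It was at 134.7 and 149.6 in contusion and 22.2, 28.5 and 25.8 in BSO, but at 59.6, 53 and 69.7 in tempol and 203.0, 193.5 and 90.1 in tempol plus BSO. The BSO difference was -2.48 without tempol and 1.34 with it, an interaction of 3.82 (adjusted p of 0.496), and 2 other Fbxo3 probe sets gave interactions of 0.69 and 0.09. Herpud1, of protein degradation in the endoplasmic reticulum, had -2.21 without and 1.06 with tempol, and the ubiquitin ligase Rnf180 had 1.40 and -1.53. Of the redox genes, Hmox1 gave an interaction of 0.54 (unadjusted limma p of 0.387), Gclc -0.29 and Nqo1 0.39.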

How the data were processed

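Total RNA of rat spinal cord was hybridised to Affymetrix rat genome arrays, 1 per sample, and all 22 arrays were read. The deposited values are linear signal intensities, and the trimmed mean of every array (2% off each end) is 250.0 to 250.1. RMA is named in the submitters' processing notes, yet its log scale and equal quantiles are not found in the files, so how the values were made stays partly unknown. The number of arrays limits precision.

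Of 31099 probe sets 57 controls were left out, and log2 was taken. Of the 31042 tested, 20826 have 1 gene symbol in the platform annotation, 436 several and 9780 none. In the lists and gene counts a gene is represented by its probe set of highest mean over all arrays (14217 genes). The ranked genes and those of smallest interaction p were taken from all probe sets with 1 gene symbol. Their values can therefore come from a dimmer probe set of the gene.

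In R 4.3.3 with limma 3.58.1, 1 fit held all 22 arrays. The 11 arrays carried terms for tempol and BSO and each other group its own mean, so the others add only to the spread (15 residual and 4.693 prior degrees of freedom). The interaction and the differences within tempol levels came from 8 group means. Tests are two-sided, with Benjamini-Hochberg adjustment over all tested probe sets and a threshold of 0.05. The code was checked on simulated data.

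The comparison and the 34 gene lists (605 of 661 genes measured) were chosen with earlier results of these data known. Named genes are up to 25 without overlap at both tempol levels, in the same direction, with a mean log2 signal of at least 6, by p; the 3 of smallest p in each list; 19 redox, stress and injury genes; and the 3 of smallest interaction p. Alternatives covered the arrays in the fit, the tempol term, quantile normalization, a signal filter, an added 32 before log2, trended and robust eBayes, array weights, the replicate number as a block, and leaving out each array. Probe sequences were not used here.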

Additional observations from a re-analysis of the deposited data

Results flagged for a closer look

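Single arrays stood far from the others on their side of the comparison in 17 of 304 sets of 5 or 6 arrays looked at, where chance gives about 1 in 20. In each, 1 array's gap to its nearest neighbour took up most of the range.

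Among the 5 arrays without BSO, contusion 2 was low for Sesn1 (18.8) and Cldn5 (68.1), and contusion 1 was low for Igf2 (170.3). Tempol 1 was high for Dpep1 (1093.8) and Atp1b2 (7505.6) and low for Ncam1 (94.1) and Gfap (8054.3), and tempol 3 was high for Atf3 (174.1).

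Among the 6 arrays with BSO, tempol plus BSO 1 was high for Glyctk (404.9) and for the actin log2 ratio of 3′ to 5′ signal (1.06). Tempol plus BSO 2 was high for Relb (1288.9), Kcnj10 (72.2) and Per1 (309.2), and tempol plus BSO 3 was low for Atf3 (19.7). BSO 1 was high for Adm (987.0), BSO 2 low for Plau (44.1) and BSO 3 low for Gss (130.9).

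The BSO difference had opposite directions without and with tempol, with no overlap at either level, for Fbxo3 (interaction 3.82, adjusted limma p of 0.496), Herpud1 (3.27) and Rnf180 (-2.93). None of the 3 passed the interaction test after adjustment. Over all probe sets, 210 had such opposite separation.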

How the results depend on the processing

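The count of 0 probe sets past an adjusted limma p of 0.05 held for BSO in all 22 alternatives fitted (smallest adjusted p of 0.167, without contusion 2) and for the interaction in all 20 (0.176, without tempol plus BSO 3). BSO minus contusion gave 0 to 1 when single arrays were left out: without contusion 1, a probe set with no gene symbol passed (4.80, adjusted p of 0.00571). Tempol plus BSO minus tempol also gave 0 to 1: an unnamed probe set passed without tempol 2 (3.96, adjusted p of 0.016) and Upk3bl1 without tempol plus BSO 3 (-3.16, adjusted p of 0.0436). Where contusion is left with 1 array, its spread is taken from the rest of the fit. Whether the replicate numbers pair samples is not settled here. Deviations from group means correlated at -0.2 to 0.198 (median 0.0446) for the same number. For different numbers they correlated at -0.205 to 0.214 (median -0.0145). Such deviations cancel out within each small group, so these correlations cannot decide the question. With the number as a replicate block, 0 probe sets passed and 1437 had an unadjusted p under 0.05, against 1375. Of 3354 values for named genes under alternatives 46 moved by more than their standard error, and of 782 list medians 71 moved. Near-zero values, such as those of Gclm, Gsr and Srxn1, changed sign in up to 7 of 23 alternatives. With the mean of all its probe sets, Ggt5 turned to -0.19. The median standard error of 0.503 limits what 6 against 5 arrays can show.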
